A study of Mus musculus with 4 samples.

Results

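The genes described here carry names of subunits of respiratory complexes II to V and cytochrome c. They were taken from a table of reads per gene by name: Sdha to Sdhd, Cyc1, Cycs, and every row starting with Uqcr, Cox4 to Cox8, Atp5, mt-Co, mt-Cyt or mt-Atp. This gave 53 of the 29595 rows, of which 47 are nuclear genes and 6 lie on the mitochondrial chromosome. The nuclear rows comprised 4 of complex II, 8 of complex III, 1 of cytochrome c, 18 of complex IV and 16 of complex V. The mitochondrial rows comprised 1 of complex III, 3 of complex IV and 2 of complex V. The row Cox4nb was picked by its prefix, although the gene is a neighbour of Cox4i1 and not a subunit. Atp5s carries the symbol Dmac2l in the RefSeq promoter set, so its place in complex V rests on its prefix.

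RNA came from the right ventricle of adult mice on a mixed C57BL/6 background, 2 of them Ezh2-deficient mutants and 2 wild type. The libraries are called mutant 1, mutant 3, wild type 1 and wild type 2 after their titles. Ezh2 is the histone methyltransferase of Polycomb repressive complex 2. The labels do not say which part of Ezh2 was deleted, in which cells or at what stage. Ezh2 itself had 73, 70, 77 and 67 reads in the 4 libraries in that order, so the reads over the whole row did not separate the groups and give no check of the labels.

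The respiratory chain passes electrons from NADH and succinate to oxygen and pumps protons across the inner mitochondrial membrane. Complex II oxidises succinate, complex III passes electrons to cytochrome c, complex IV (cytochrome c oxidase) reduces oxygen, and complex V (ATP synthase) uses the proton gradient to make ATP. Complexes III, IV and V combine subunits made from nuclear genes with subunits made from mitochondrial DNA (mtDNA), whereas complex II is wholly nuclear. Heart muscle is rich in these complexes, and several complex IV subunits exist there as a heart and skeletal muscle isoform beside a widely expressed one.

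The libraries held 18177642 to 23853394 reads. Reads on the mitochondrial chromosome took 34.7% to 47.3% of a library, and the 53 genes together 21.0% to 24.4%. The library protocol treats polyadenylated RNA libraries with a duplex-specific nuclease that removes abundant sequences. It may lower the reads and compress the fold changes of the abundant genes among the 53, which was not measured. Sex followed genotype: the Y-linked gene Ddx3y had 754 and 659 reads in the mutants against 2 and 2 in the wild types, so sex and genotype cannot be told apart. With 2 hearts against 2, a relabelling test cannot give a two-sided p below 0.333. In bulk tissue, fewer cells of a type and less RNA per cell cannot be told apart.

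None of the tested genes of complexes II to V passed the test at an adjusted p of 0.05 (edgeR's quasi-likelihood test with Benjamini-Hochberg adjustment over 16128 rows). The test covered 51 of the 53, and 0.130% of all tested rows were called. Cox7b2 (0, 2, 2 and 0 reads) and Cox8c (0 reads in each library), both testis isoforms, had too few reads to be tested. At an unadjusted p of 0.05, 7 genes were on the higher side (6.49% of all rows) and 2 on the lower side (4.38% of all rows). The 7 were Atp5l, Cox6a2, Cox7b, Uqcrh, Cox5a, Cox6c and Atp5j2, and the 2 were Cox7a1 and Atp5s. DESeq2 called 3 of the 51, where it called 1.41% of all rows: Atp5l (adjusted p = 0.0047), Cox6a2 (0.0053) and Cox7b (0.047), all higher in the mutants. limma-voom called 0. Of the 45 tested nuclear genes, 17 had both mutants above both wild types (22.3% of all rows) and 7 had both below (22.4% of all rows). Of the 6 mtDNA genes, 5 had both mutants above (22.3% of all rows) and 0 had both below (22.4% of all rows). Of the 7 mtDNA rows of complex I, 5 had both mutants above and 0 had both below.

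By complex, most nuclear genes of complex IV had positive values and most of complex II negative ones. The median log2 fold change, mutant over wild type, was -0.22 over the 4 genes of complex II, 0.20 over the 8 nuclear genes of complex III, 0.35 over the 16 tested nuclear genes of complex IV and 0.12 over the 16 nuclear genes of complex V. It was 0.60 over the 6 mtDNA genes and 0.00 over all tested rows. Genes above 0 numbered 1 of 4 in complex II, 5 of 8 in complex III, 14 of 16 in complex IV, 9 of 16 in complex V and 5 of 6 among the mtDNA genes. Scaling by library totals alone lowered the median of all rows to -0.28 and shifted these medians by about the same amount, to -0.51, -0.10, 0.054, -0.17 and 0.30.

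**Figure D1:**
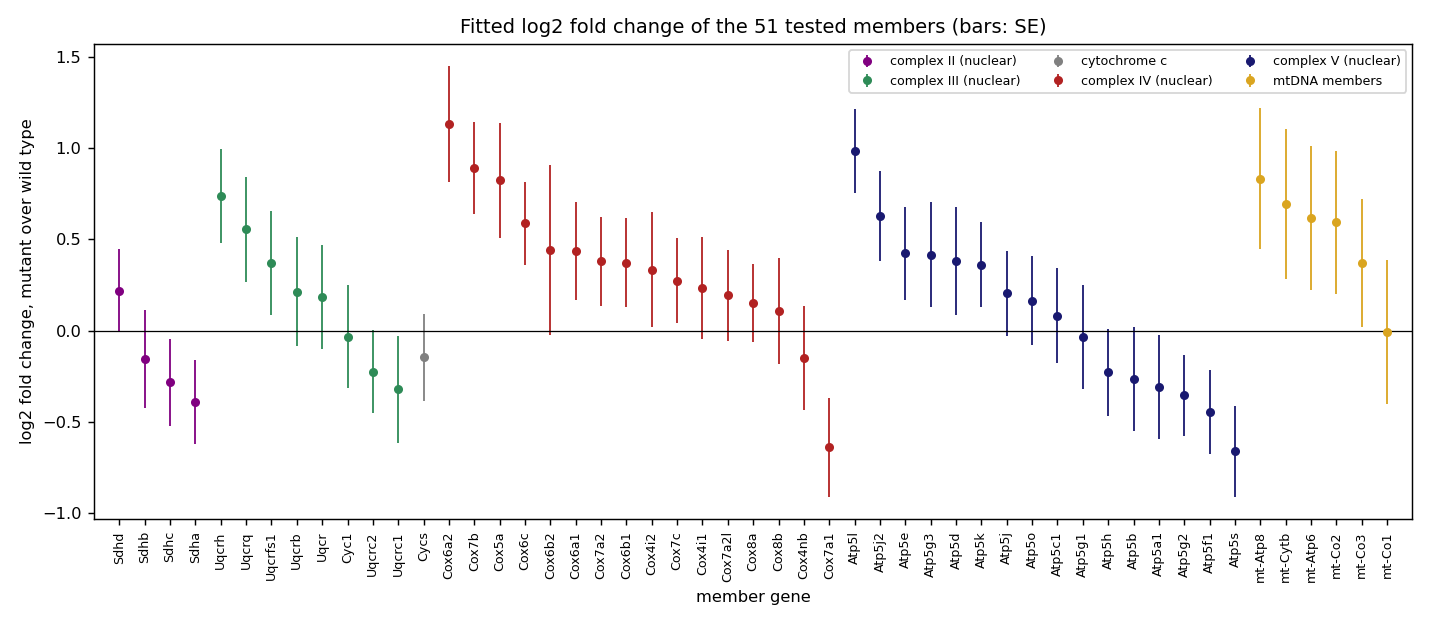
Fitted log2 fold change, mutant over wild type, of the 51 tested genes, ordered within each complex, with bars for the SE (2 hearts per group). Cox6a2 (1.13) lies highest and Atp5s (-0.66) and Cox7a1 (-0.64) lowest, and most genes of complex IV lie above 0.

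The 2 wild-type hearts differed from each other more than the 2 mutants did in the nuclear genes. Wild type 1 exceeded wild type 2 in 40 of 45 nuclear genes, against 54.5% of all tested rows, 588 of the 742 nuclear rows at 100 CPM or more and 34 of the 39 nuclear rows of complex I. The median absolute log2 difference over these genes was 0.45 between the wild types and 0.13 between the mutants, and over all tested rows 0.42 and 0.19. In the mtDNA genes wild type 1 was the lower one in 5 of 6, with a median log2 difference to wild type 2 of -0.43. Over these 6 genes the median absolute log2 difference was 0.48 between the mutants and 0.43 between the wild types. Results therefore depended on which wild type was kept. Without wild type 1, edgeR called 15 nuclear genes, 14 higher (7.87% of all rows) and 1 lower (4.33% of all rows). Without wild type 2 it called 5 higher and 5 lower among the nuclear genes and 2 higher among the mtDNA genes (13.2% and 8.83% of all rows). Without either mutant it called 0. In each of these fits 1 group is a single heart whose spread is assumed to equal that of the other group.

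In complex II, the mean level was lower in the mutants for 3 of 4 genes, and 0 of 4 had an unadjusted p under 0.05. Sdha, the flavoprotein subunit that oxidises succinate, stood at 670, 589, 831 and 819 CPM (reads scaled to library size by TMM, a trimmed mean of ratios; always in the order mutant 1, mutant 3, wild type 1, wild type 2). Both mutants were below both wild types, and the log2 fold change was -0.39 ± 0.23 (SE, adjusted p = 0.585). Sdhc, one of the membrane anchors, stood at 277, 268, 382 and 281 CPM, with mutant 1 close to wild type 2. Sdhb, the iron-sulfur subunit, stood at 656, 658, 876 and 588 CPM, where wild type 2 was the lowest library. Sdhd, the other membrane anchor, had the only positive value of the complex, at 265, 324, 269 and 237 CPM (log2 fold change 0.22 ± 0.23, and -0.080 with library totals alone). Summed, the 4 genes took 0.309% and 0.289% of nuclear reads in the mutants against 0.403% and 0.358% in the wild types. The groups did not overlap in this share, which was not tested.

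In complex III, the small subunits had positive values and both core proteins negative ones, none of them past the adjusted threshold. Uqcrh, the hinge protein that contacts cytochrome c1, stood at 990, 1067, 710 and 525 CPM. Both mutants were above both wild types, by 0.74 ± 0.26 on the log2 scale (unadjusted p = 0.021, adjusted p = 0.365). Uqcrq, a small membrane subunit, stood at 1489, 1627, 1278 and 843 CPM, again without overlap (log2 fold change 0.56 ± 0.29, adjusted p = 0.533). Uqcrfs1, the Rieske iron-sulfur protein, stood at 454, 527, 467 and 292 CPM, and here mutant 1 was below wild type 1. The core proteins had negative values. Uqcrc1 stood at 527, 512, 816 and 483 CPM (log2 fold change -0.32 ± 0.29), and its spread came from wild type 1, the highest library. Uqcrc2 stood at 410, 405, 512 and 439 CPM, with both mutants below both wild types. Cyc1, cytochrome c1, stood at 390, 436, 522 and 322 CPM, so that both mutants lay between the wild types. The other 2 nuclear genes, Uqcrb and Uqcr, had log2 fold changes of 0.21 and 0.18. Cycs, cytochrome c, which carries electrons from complex III to complex IV, stood at 117, 148, 127 and 166 CPM, and the groups overlapped.

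Complex IV had the widest range, from its highest value in Cox6a2 to its lowest in Cox7a1, both heart and muscle isoforms. Cox6a2 (chr7:135348949-135349880 on mm9) stood at 4925, 5508, 2883 and 1875 CPM. Both mutants were above both wild types, with a mean of 5217 ± 412 CPM against 2379 ± 713 CPM (SD, n = 2). The ratio was 2.19 and the log2 fold change 1.13 ± 0.32 (adjusted p = 0.279), between 0.85 and 1.48 when any 1 library was left out. Cox7a1 (chr7:30969190-30971049) went the other way, at 2003, 2029, 3476 and 2798 CPM. Its mean was 2016 ± 18.4 CPM in mutants against 3137 ± 480 CPM in wild types (SD, n = 2), a log2 fold change of -0.64 ± 0.27 (unadjusted p = 0.047, adjusted p = 0.449). Among the 16 tested genes of this complex only Cox7a1 and Cox4nb had negative values, and with library totals alone Cox4i1 (-0.056), Cox8a (-0.14) and Cox8b (-0.18), among others, were negative too.

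Other nuclear genes of complex IV with an unadjusted p under 0.05 encode subunits without a muscle isoform. Cox7b, an X-linked subunit needed for assembly of the complex, stood at 878, 983, 434 and 571 CPM (log2 fold change 0.89 ± 0.25, adjusted p = 0.282). Cox5a, which packs against the matrix side of the core, stood at 1121, 1252, 858 and 484 CPM (0.82 ± 0.32, adjusted p = 0.409). For both genes the mutants lay above the wild types, but in Cox5a the wild types differed more from each other than the mean of the mutants from wild type 1. Cox6c stood at 440, 409, 257 and 308 CPM, likewise without overlap. Cox4i1, the widely expressed form of the largest nuclear-encoded subunit, stood at 1085, 1102, 1123 and 738 CPM, and the groups overlapped. Of the remaining tested genes, Cox6a1, Cox7a2, Cox6b1, Cox7c, Cox4i2, Cox6b2, Cox7a2l, Cox8a and Cox8b had log2 fold changes from 0.11 to 0.44. Cox4nb, at 6.89 to 10.2 CPM, had -0.15. All 18 nuclear rows together took 2.20% and 2.26% of nuclear reads in the mutants against 2.05% and 1.65% in the wild types. Cox6a2 alone held 105547, 108614, 64755 and 37268 of these reads. Without Cox6a2 the share of the complex overlapped between the groups.

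**Figure D2:**
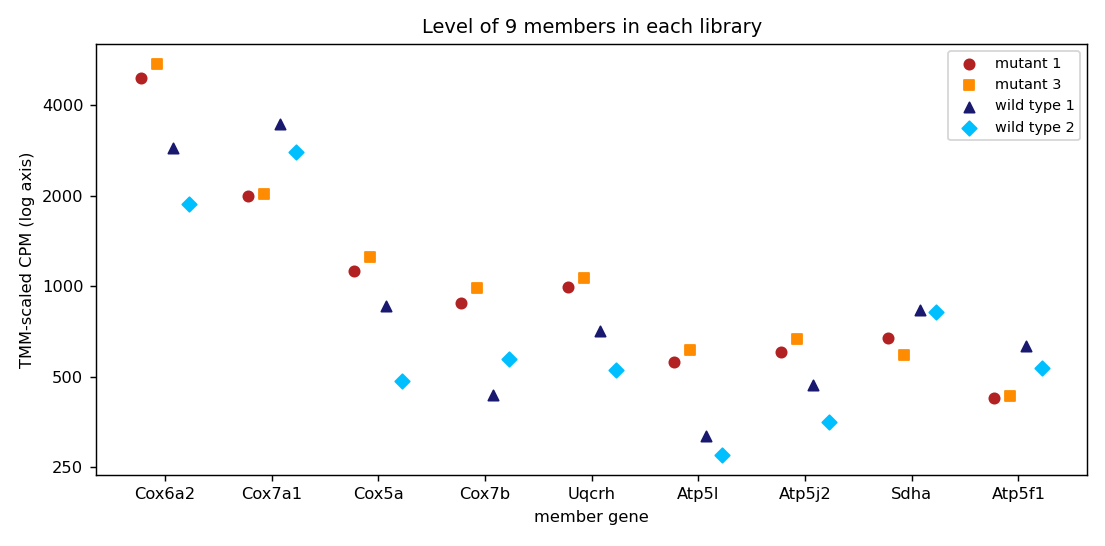
Level of 9 genes in each of the 4 libraries, in TMM-scaled CPM on a log axis. Cox6a2, Cox5a, Cox7b, Uqcrh, Atp5l and Atp5j2 have both mutants above both wild types, and Cox7a1, Sdha and Atp5f1 have both below, while the wild types often lie apart from each other.

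The muscle isoforms differed in the direction of their share of each isoform pair. Of the reads of Cox7a1 and Cox7a2, the former made up 81.6% in mutant 1 (95% exact binomial interval 81.3 to 82.0) and 80.5% in mutant 3 (80.1 to 80.8). In the wild types it made up 89.4% (89.1 to 89.6) and 90.0% (89.8 to 90.3). The means were 81.1% ± 0.827 and 89.7% ± 0.475 (SD, n = 2), with no overlap between the groups. The widely expressed form Cox7a2 stood at 450, 492, 414 and 310 CPM, on the higher side in the mutants. Cox6a2 made up 97.4% and 97.9% of the reads of Cox6a1 and Cox6a2 in the mutants, against 96.1% and 96.3% in the wild types. Here the common form Cox6a1 was also on the higher side, at 133, 121, 116 and 71.6 CPM. Cox8b made up 89.9%, 89.8%, 91.1% and 88.5% of the reads of Cox8a and Cox8b, and the groups overlapped. Cox8a stood at 109, 118, 112 and 92.6 CPM and Cox8b at 975, 1032, 1150 and 711 CPM. Cox4i2, the lung and hypoxia-linked form, made up 0.645% to 0.839% of the reads of Cox4i1 and Cox4i2. These intervals cover counting error only, and because the genes differ in length the shares compare libraries and not the levels of 2 genes. The longest stretch of identical bases between the matched transcripts was 12 for Cox6a1 and Cox6a2, 12 for Cox7a1 and Cox7a2, 10 for Cox8a and Cox8b, and 14 for Cox4i1 and Cox4i2.

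**Figure D3:**
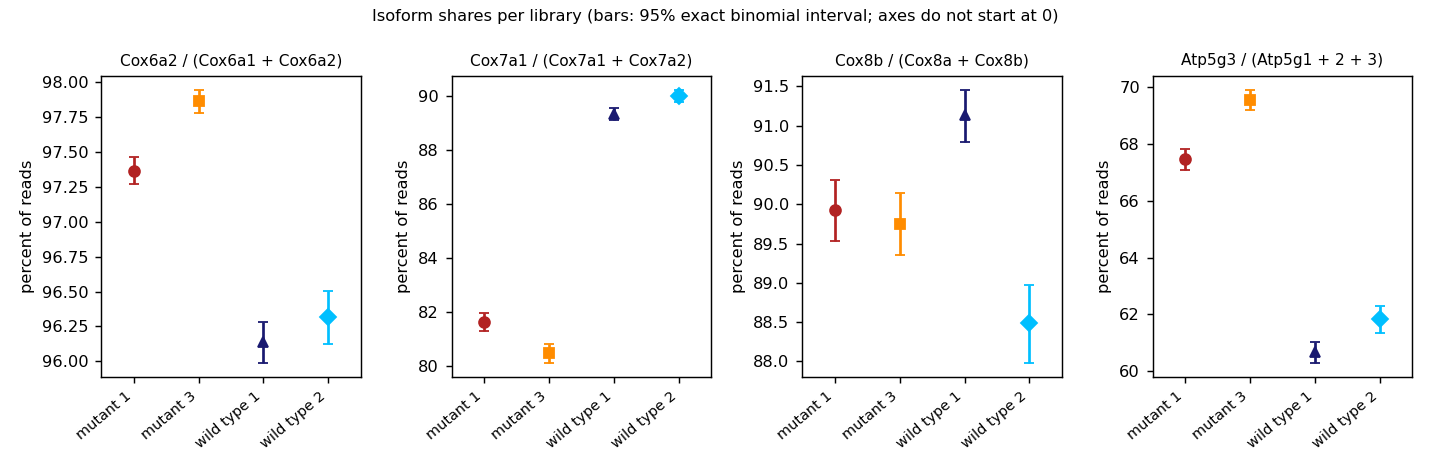
Share of the reads of each isoform set taken by 1 isoform, per library, with 95% exact binomial intervals; the vertical axes do not start at 0 and differ between panels. The Cox7a1 share lies near 81% in both mutants and near 90% in both wild types, whereas the Cox8b shares of the mutants lie between those of the wild types.

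Of the isoform sets, the upstream sequences of the Cox7a pair are shown, because the muscle isoform Cox7a1 and the common isoform Cox7a2 lay on opposite sides of 0. The 250 bases before the transcription start are given. They are RefSeq promoter sequences on GRCm38.p6, written 5′ to 3′ on the gene's strand, with CpG dinucleotides in capitals. Cox7a1 lies at chr7:30183921-30184170 (plus strand, 4 CpG) and Cox7a2 at chr9:79759854-79760103 (minus strand, 14 CpG).
Cox7a1: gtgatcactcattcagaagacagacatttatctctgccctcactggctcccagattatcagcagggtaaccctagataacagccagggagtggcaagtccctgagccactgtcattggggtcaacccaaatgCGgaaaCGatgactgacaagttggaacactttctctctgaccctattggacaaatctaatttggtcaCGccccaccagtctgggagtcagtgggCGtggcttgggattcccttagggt
Cox7a2: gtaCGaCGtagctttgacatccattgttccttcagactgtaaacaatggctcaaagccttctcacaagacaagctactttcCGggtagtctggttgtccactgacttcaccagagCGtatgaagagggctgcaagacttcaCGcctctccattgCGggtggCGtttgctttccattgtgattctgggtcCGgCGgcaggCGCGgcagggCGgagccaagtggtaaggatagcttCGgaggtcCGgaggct
In windows of 300 bases (250 before to 50 after the start), 35 of the 47 nuclear genes could be matched, with a median of 19 CpG against 8 over 27025 genes. The 3 with the fewest were Cox8b (2), Cox7b (5) and Cox7a1 (7), and 49% of all genes had 7 or fewer. The motif of nuclear respiratory factor 1 (GCGC, then any base, then TGCGC) was found on either strand in 10 of the 35 (28.6%, against 5.19% of all genes with a window). The ETS-type motif CCGGAAG was found in 12 of the 35 (34.3%, against 9.93%). Neither motif was found in the windows of Cox7a1, Cox7b or Cox8b. The same held for Cox7a2, Cox5a, Cox7c and Cycs, among others, and Cox6a2 was not among the 35. These matches describe letters in a window, and nothing measured here shows a factor bound there.

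In complex V, 9 of 16 nuclear genes had positive values, led by Atp5l and Atp5j2, and 7 negative ones, led by Atp5s and Atp5f1. Atp5l, subunit g of the membrane part, which sits where ATP synthase dimers meet, had the smallest p of all 51 genes. It lies at chr9:44721352-44728786 on mm9 and stood at 560, 611, 318 and 274 CPM. The mutants averaged 586 ± 36.0 CPM and the wild types 296 ± 31.4 CPM (SD, n = 2), a ratio of 1.98 with a log2 fold change of 0.98 ± 0.23 (adjusted p = 0.204). The row AK017092, on the opposite strand, shares 505 bases with Atp5l and had 10522, 10638, 4891 and 3766 reads. The sources used here do not say whether the counting used strand, so reads of the 2 rows cannot be told apart. Atp5j2, subunit f, stood at 604, 668, 470 and 354 CPM, with a log2 fold change of 0.63 ± 0.25 (adjusted p = 0.418). It overlaps the same-strand row AK164124.

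The alpha and beta subunits, which form the catalytic head of ATP synthase, had negative values, and the groups overlapped in both. Atp5a1, the alpha subunit, stood at 1988, 1704, 2653 and 1913 CPM, with mutant 3 the lowest library. Atp5b, the catalytic beta subunit, stood at 1821, 1831, 2589 and 1795 CPM, so that both mutants were just above wild type 2 and far below wild type 1. The log2 fold changes were -0.31 ± 0.28 and -0.26 ± 0.28. Atp5f1, subunit b of the peripheral stalk, stood at 425, 432, 634 and 532 CPM without overlap (-0.44 ± 0.23, adjusted p = 0.533). Atp5s, coupling factor B, was the lowest gene of the complex, at 8.49, 8.98, 12.0 and 15.6 CPM, also without overlap (-0.66 ± 0.25, unadjusted p = 0.029, adjusted p = 0.398). Of the other nuclear subunits, Atp5e, Atp5k, Atp5d, Atp5j, Atp5o, Atp5c1 and Atp5h had log2 fold changes from -0.23 to 0.42. Together the 16 nuclear genes took 1.98%, 1.88%, 2.26% and 1.78% of nuclear reads, and the groups overlapped.

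Subunit c, which forms the rotating ring, is made from 3 genes whose mature proteins are the same. Atp5g3 stood at 2032, 2116, 1855 and 1256 CPM, Atp5g1 at 934, 874, 1133 and 720 CPM and Atp5g2 at 46.6, 52.0, 70.4 and 55.6 CPM. Of the reads of the 3 genes, Atp5g3 took 67.5% and 69.6% in the mutants against 60.7% and 61.8% in the wild types. Atp5g1 took 31.0% and 28.7% against 37.0% and 35.4%, and Atp5g2 took 1.55% and 1.71% against 2.30% and 2.74%. All 3 shares separated the groups, but they are parts of 1 whole and so not separate results. No single gene passed the test (smallest unadjusted p = 0.149, Atp5g2). The matched transcripts were 4715 bases for Atp5g1 and 723 for Atp5g3. After the correction for GC content and transcript length described below, their log2 fold changes were -0.00011 and -0.0028, and that of Atp5g2 was -0.69. The longest identical stretch between their matched transcripts was 21 bases, for Atp5g1 and Atp5g2.

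The mtDNA genes are transcribed together on long precursors, so their makeup was also described within each library. mt-Co1, the catalytic subunit of complex IV, which holds the site where oxygen is reduced, stood at 54004, 69279, 65667 and 58143 CPM. Its log2 fold change was -0.01 ± 0.39, with the mutants at both ends of the range. The other 5 had positive values and both mutants above both wild types. That separation rests partly on the TMM factors, which were 0.99, 0.83, 1.12 and 1.09. As a share of all reads, mt-Cytb overlapped between the groups (2.88%, 3.40%, 1.84% and 2.96%). Taken singly, mt-Co3 and mt-Atp6 overlapped too, while mt-Co2 and mt-Atp8 did not. The 3 genes of complex IV together overlapped, while the 2 of complex V did not (4.48%, 5.52%, 3.14% and 4.47%). In that complex V share mutant 1 was only just above wild type 2. mt-Co2, which takes up electrons from cytochrome c, stood at 43371, 59315, 29833 and 38204 CPM (log2 fold change 0.59 ± 0.39). mt-Co3, the third core subunit, stood at 17262, 23672, 14710 and 16978 CPM, where mutant 1 was only just above wild type 2. mt-Cytb, the cytochrome b of complex III, stood at 29206, 41182, 16454 and 27065 CPM (0.69 ± 0.41). mt-Atp8 and mt-Atp6, the mtDNA-encoded membrane subunits of complex V, stood at 19099, 27750, 10505 and 15825 CPM and at 26296, 39017, 17618 and 25031 CPM. Their log2 fold changes were 0.83 ± 0.39 and 0.61 ± 0.39. The smallest adjusted p among the 6 was 0.487 (mt-Atp8).

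As a share of the reads of the 6 mtDNA genes, mt-Co1 and mt-Co3 were smaller in both mutants and the other 4 larger. mt-Co1 took 28.5% and 26.6% in the mutants against 42.4% and 32.1% in the wild types, with the wild types further apart from each other than wild type 2 from either mutant. mt-Atp8 took 10.1% and 10.7% against 6.79% and 8.73%, and mt-Cytb 15.4% and 15.8% against 10.6% and 14.9%. mt-Co2 took 22.9% and 22.8% against 19.3% and 21.1%, mt-Atp6 13.9% and 15.0% against 11.4% and 13.8%, and mt-Co3 9.12% and 9.10% against 9.50% and 9.37%. Together the 6 genes took 18.7%, 21.5%, 17.3% and 19.8% of all reads, so the groups overlapped in total. Each of the 6 shares separated the groups, but they are parts of the same whole and so not separate results. For mt-Atp6 the gap was narrow, with 13.9% in the lower mutant against 13.8% in wild type 2. The difference in makeup was not tested.

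**Figure D4:**
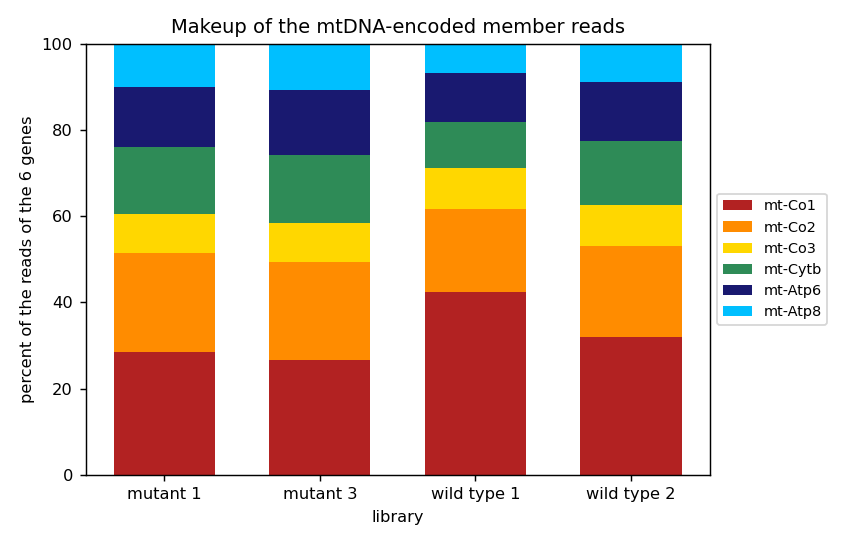
Reads of the 6 mtDNA genes in each library, as percent of their sum. The mt-Co1 segment is largest in wild type 1 (42.4%) and smallest in mutant 3 (26.6%).

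mt-Atp8 and mt-Atp6 lie on overlapping reading frames of 1 transcript, which limits how far their counts are separate. The shared bases (chrM:7927-7969 on mm9, plus strand) are given with the start codon of mt-Atp6 in capitals.
mt-Atp8 and mt-Atp6 overlap: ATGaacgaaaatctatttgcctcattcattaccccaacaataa
These 43 bases are 21.1% of the mt-Atp8 row and 6.31% of the mt-Atp6 row. The sources used here do not say how reads in the overlap were counted.

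Across the nuclear genes, the log2 fold change moved with transcript length, as it did over the whole table. Among the 21 tested nuclear genes with a matched transcript under 750 bases, 18 had a value above 0 (median 0.37). Of the 12 from 750 to 1500 bases, 10 were above 0 (median 0.21). Of the 8 from 1500 to 3000 bases, 1 was above 0 (median -0.29), and of the 4 longer ones, 0 were (median -0.15). Over all tested nuclear rows with a transcript the medians in the same classes were 0.43, 0.23, 0.047 and -0.11. Spearman's rho between length and log2 fold change was -0.47 over the 45 genes and -0.29 over 13113 rows. These are correlations across genes that share the same 4 libraries. The short genes here include many small subunits, among them Atp5g3 (723 bases) and Atp5g2 (731 bases) of the rotating ring. The long ones include Sdha, Uqcrc1, Uqcrc2, Atp5a1, Atp5b and Atp5f1. The transcript matched to Atp5g1 was 4715 bases, a long form of a gene that also has short ones.

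After a correction for GC content and transcript length, chosen after seeing the data, rho over the 45 genes was -0.057 and their median log2 fold change -0.11. Of the 45, 13 were then above 0. Cox7a1, whose transcript of 393 bases is among the shortest, was the only gene called, at -1.20 ± 0.17 (adjusted p = 0.024, with 0.160% of the corrected rows called lower and 0.427% higher). Cox6a2 stood at 0.74 ± 0.19 (adjusted p = 0.144), Cox5a at 0.34, Atp5l at 0.41 and Cox7b at 0.38, and Atp5s at -1.16 ± 0.21 (adjusted p = 0.060). The median of complex IV was -0.028, of complex V -0.19, of complex III -0.18, of complex II -0.30 and of the mtDNA genes -0.27. Whether the relation to length comes from the libraries or from the hearts was not tested.

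**Figure D5:**
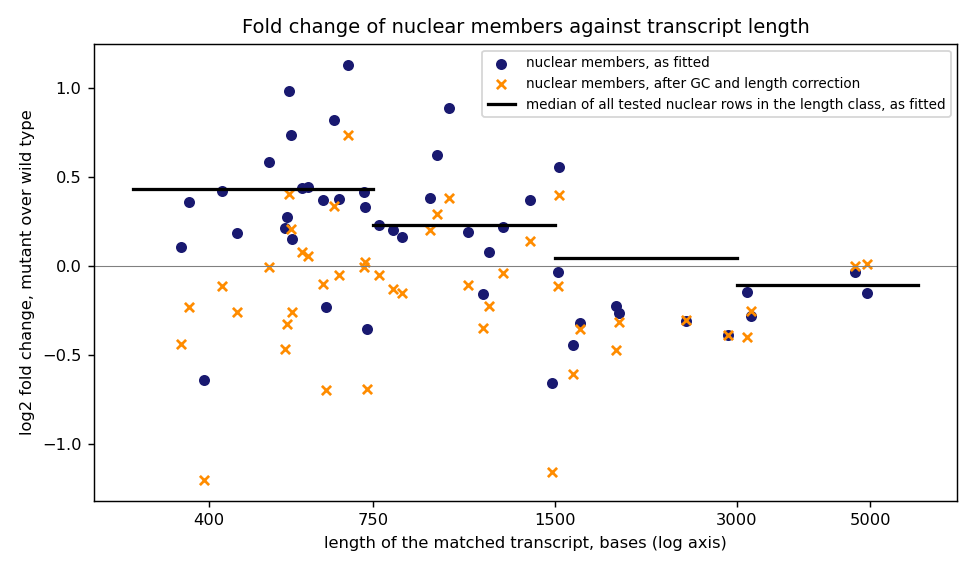
Log2 fold change of the 45 tested nuclear genes against the length of the matched transcript (log axis), as fitted (circles) and after correction for GC content and length (crosses), with the median of all tested nuclear rows in 4 length classes (black lines). Fitted values lie mostly above 0 under 1500 bases and below 0 beyond, and the lowest cross is Cox7a1 (-1.20).

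Complex I, the entry point for electrons from NADH, had positive medians. So had the nuclear genes of complexes III to V and the mtDNA genes, while the median of complex II was negative. Its 39 nuclear rows had a median log2 fold change of 0.27, with 28 above 0, and its 7 mtDNA rows a median of 0.73. edgeR called 0 of them and DESeq2 2 (1.41% of all rows). Among the nuclear rows 10 had an unadjusted p under 0.05 on the higher side (6.49% of all rows) and 1 on the lower (4.38%). The smallest adjusted p by edgeR was 0.080 (Ndufb3, 207, 199, 78.4 and 81.7 CPM). After the correction the nuclear median of complex I was -0.10. Ndufb6 was then called lower by edgeR, at -1.30 ± 0.17 (adjusted p = 0.016, with 0.160% of the corrected rows called lower). No test of complexes II to V against complex I was made.

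Genes that build or supply the complexes were read from lists. In the main analysis edgeR called 0 of their rows. DESeq2 called 2 assembly factors of complex IV and 1 factor of complex V (1.41% of all rows), all named here. Of 15 tested assembly factors of complex IV, 5 had an unadjusted p under 0.05 on the higher side (6.49% of all rows) and 0 on the lower side (4.38%), with a median log2 fold change of 0.07. The leading row, 1810035L17Rik (Slirp, which binds mitochondrial messenger RNAs), stood at 107, 112, 35.5 and 43.6 CPM (1.47 ± 0.22, adjusted p = 0.075). Cox19, a copper-handling assembly factor, stood at 45.0, 43.3, 23.5 and 18.9 CPM (1.06 ± 0.22, adjusted p = 0.166). After the GC and length correction edgeR called both rows higher, at 1.30 ± 0.16 (adjusted p = 0.012) and 1.06 ± 0.16 (adjusted p = 0.032). Of all corrected rows, 0.427% were called higher. Of 8 tested assembly factors of complexes II and III, 2 were on the higher side at that p: Acn9 (Sdhaf3) at 9.52, 10.5, 3.92 and 4.73 CPM and 1110058L19Rik (Sdhaf4) at 53.7, 50.5, 38.4 and 35.3 CPM. Among 7 factors of complex V, Atpif1, the inhibitor of ATP hydrolysis, stood at 179, 169, 103 and 81.8 CPM (0.91 ± 0.22, adjusted p = 0.225). The next by p was Usmg5 (0.25).

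Other parts of mitochondrial energy supply had no row at an unadjusted p under 0.05. Of 12 enzymes of the citric acid cycle outside complex II, 7 had both mutants below both wild types (22.4% of all rows), and the median log2 fold change was -0.36. The smallest p were those of Suclg2 (41.5, 37.3, 51.6 and 54.4 CPM) and Idh3a (270, 286, 392 and 362 CPM). The 19 genes of mtDNA transcription, replication and translation had a median of 0.10, led by Polg2 (0.99) and Mterf (1.40), both below 3 CPM. The 6 genes of ATP and phosphate exchange had a median of 0.01, led by Vdac3 (-0.42) and Slc25a3 (-0.41).

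Markers of other cells were read beside these values. The 8 cardiomyocyte markers were all detected, with summed levels of 45524, 50536, 41533 and 40586 CPM. Myl2, the ventricular light chain, was on the higher side (log2 fold change 0.87) and Ryr2, the calcium release channel, on the lower (-0.60), both with unadjusted p under 0.05. The 3 atrial markers summed to 140, 113, 55.3 and 5.48 CPM, so that wild type 2 held the least. All 3 had both mutants above both wild types (22.3% of all rows), with a median log2 fold change of 2.03. Of these, 2 had an unadjusted p under 0.05 (6.49% of all rows on the higher side). Of 6 fast skeletal muscle markers, 5 were high in mutant 1 alone, such as Tnnt3 with 1516, 20, 8 and 5 reads, and Ckm overlapped between the groups. Cox6a2 and Cox7a1 are also skeletal muscle isoforms. Their log2 fold changes were 1.13 and -0.64 with all 4 libraries. Without mutant 1, which leaves a single mutant heart, they were 1.25 and -0.59. The summed levels of 6 fibroblast (617 to 797 CPM), 5 endothelial (393 to 528 CPM), 4 smooth muscle (104 to 167 CPM) and 3 macrophage markers (35.5 to 52.3 CPM) overlapped between the groups, except that both mutants were lowest in the smooth muscle sum. That sum was mostly Acta2 (68.6, 66.5, 136 and 90.9 CPM), while Myh11 and Tagln had both mutants above both wild types and the median log2 fold change of the 4 was 0.28. Acta2 was on the lower side at an unadjusted p under 0.05, and the fibroblast marker Dcn and macrophage marker Cd163 on the higher. Red blood cell markers summed to 2271, 3360, 1936 and 1447 CPM, with both mutants above both wild types. Of these 3 markers, 2 had an unadjusted p under 0.05 on the higher side, and Alas2 overlapped between the groups. Of the 4 brown fat markers found, Cidea stood at 28.1, 36.5, 34.4 and 23.2 CPM, with overlap between the groups. Ucp1 had 19, 0, 0 and 0 reads, and Elovl3 and Adipoq stood below 1 CPM in every library. The part of atrial tissue, skeletal muscle or blood in the values above was not tested.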

How the data were processed

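RNA was sequenced from right ventricles of 2 Ezh2-deficient and 2 wild-type mice. Per the labels' protocols, polyadenylated RNA libraries were digested with a duplex-specific nuclease. The submitters' processing notes name TopHat 1.2.0, Cufflinks and the build mm9. The sources used here do not give the annotation, the counting rule or the use of strand. The deposited table holds, per the file headers, a read count per gene row and library. It also holds a normalised value from the authors, which equals CPM within 5e-06, and the authors' ratio and p-value for pairs of single libraries; these were not used.

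The quasi-likelihood test of edgeR 4.0.16 in R 4.3.3 was run on the counts after filterByExpr and TMM scaling, with no covariate, two-sided, and Benjamini-Hochberg adjustment over 16128 rows. A call is an adjusted p under 0.05. Levels are TMM-scaled CPM. The script was tested on simulated data. Alternatives were DESeq2 1.42.0, limma-voom 3.58.1, other scalings, filters and thresholds, and each library left out. A correction for GC content and transcript length, and the same rows without it, were added after seeing the data. Transcripts came from a later mouse annotation and matched 81.4% of tested rows and all 53 genes. Start positions are counted from 1.

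The genes and lists were chosen with earlier results of these data known. Per-library values were given for a fixed set of subunits, every mtDNA gene, and in each complex the 2 nuclear genes of smallest p per direction; of other lists, the 2 of smallest p. Cox6c, Myl2, Ryr2, Ucp1 and some marker genes are named outside that rule.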

Additional observations from a re-analysis of the deposited data

How the results depend on the processing

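The count of nuclear genes of complexes II to V called was 0 in the main analysis, 3 with DESeq2 and 1 after the GC and length correction, and 0 to 15 when 1 library was left out; of the mtDNA genes it was 0, and 0 to 2 without 1 library. Over the whole table, 21 rows were called in the main analysis, 227 with DESeq2, 156 with library totals alone, 317 without a filter, 8 with at least 10 CPM in 2 libraries, 69 at an adjusted p of 0.1, 77 after the correction and 63 to 3675 without 1 library. Both fits without a wild type gave the most calls, and in such a fit the lone heart's spread is assumed. Library totals alone moved the medians of complexes II, III, IV, V and the mtDNA genes to -0.51, -0.10, 0.054, -0.17 and 0.30. The correction moved those of III, IV, V and the mtDNA genes to -0.18, -0.028, -0.19 and -0.27. Without 1 library the medians ran from -0.41 to 0.060 in complex II, -0.015 to 0.44 in III, 0.11 to 0.57 in IV, -0.11 to 0.35 in V and 0.36 to 0.87 in the mtDNA genes.

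Sign changes are listed for the 36 genes followed singly under each alternative, which leaves out the other tested genes. With library totals alone these were Sdhd (-0.080), Cox4i1 (-0.056), Cox8a (-0.14) and Cox8b (-0.18). After the correction they were Sdhd (-0.037), Cox7a2 (-0.051), Cox4i1 (-0.052), Cox8a (-0.26), Cox4nb (0.014), Cox8b (-0.44), Atp5g3 (-0.0028), mt-Co2 (-0.14), mt-Co3 (-0.33), mt-Atp8 (-0.42) and mt-Atp6 (-0.20). Outside those 36, Uqcrb, Uqcr, Cox6c, Cox6b1, Cox7c, Cox7a2l, Atp5e, Atp5k, Atp5j, Atp5o and Atp5c1 also went from positive to negative values with the correction. At 10 CPM or more they were Cyc1 (0.024), Atp5g1 (0.020) and mt-Co1 (0.041), with limma-voom Cyc1 (0.0090) and Atp5g1 (0.0025), with upper-quartile scaling mt-Co1 (0.0076) and over rows with a transcript mt-Co1 (0.0064). When 1 library was left out in turn, values ran across 0 for Sdhb (-0.42 to 0.16), Uqcrc1 (-0.66 to 0.11), Cyc1 (-0.34 to 0.36), Cox4i1 (-0.044 to 0.57), Cox4nb (-0.41 to 0.16), Cox8b (-0.20 to 0.50), Atp5b (-0.51 to 0.027), Atp5g1 (-0.33 to 0.33), Cycs (-0.32 to 0.055) and mt-Co1 (-0.16 to 0.20). Cox6a2, Cox7b, Cox5a, Cox7a1, Uqcrh, Atp5l, Atp5s and Atp5j2 kept their direction in every alternative run. The cause of these shifts was not tested. The fit without mitochondrial rows gives no value for the mtDNA genes. No paired analysis was possible because the groups share only 1 replicate number. The effect of the nuclease step on these abundant genes was not measured.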
